A study of Homo sapiens with 3 samples.

Results

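Acetyl and methyl groups on histone tails are added by acetyltransferases and methyltransferases and removed by deacetylases and demethylases. Acetylation is found at active promoters and enhancers, whereas methylation of H3K9 is found in silent chromatin and methylation of H3K36 and H3K79 along transcribed genes. Most of these enzymes work as subunits of large complexes, and each family holds several paralogues.

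The transcripts of these enzymes were measured in C33A cells, a human cervical carcinoma line, where the study mapped the chromatin remodeller CHD8. RNA came from 3 independent cultures that were growing exponentially, received no treatment and carried no introduced gene, and each culture was hybridized to 1 Affymetrix Human Gene ST array. The arrays hold 1 condition, so that no contrast between groups was made and no p-value is given. Genes were chosen by symbol: the HDAC, SIRT, KDM, KAT and PRMT families, EHMT1 and EHMT2, SUV39H1 and SUV39H2, SETDB1 and SETDB2, NSD1 to NSD3, CREBBP, EP300 and DOT1L. Of 18417 genes measured by a probe set with 1 symbol, 64 matched. KDM5D lies on the Y chromosome and its level is not given. EHMT1-IT1 is a non-coding transcript within the EHMT1 gene and not an enzyme, and it had a level of 6.39 ± 0.11 log2 (SD, n = 3 arrays). The remaining 62 enzyme genes are described here.

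Levels are log2 intensities normalized together over the 3 arrays. No detection call comes with them. As a guide to background, 455 genes that few tissues transcribe (receptors of smell and taste, beta-defensins and the proteins associated with hair keratins) were taken, and their 95th percentile, 6.43 log2, is called the silent-family bound. Genes were also ranked into tertiles of level, and the high tertile begins at 8.14 log2. The signal of a probe set depends on its sequence as well as on its transcript, so that the order of different genes is approximate. Between arrays, Pearson's r over the probe sets was 0.993 to 0.994. With 3 arrays each SD is itself imprecise. In a culture, fewer cells with a transcript and less of it per cell cannot be told apart.

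Markers of the labelled cell type were mostly low. Of 7 measured markers of simple epithelium only KRT18, a keratin, exceeded the silent-family bound, at 7.75 ± 0.11 log2 (SD, n = 3), while EPCAM was at 4.52 and E-cadherin (CDH1) at 4.95. Of 6 leukocyte markers only PTPRC, the CD45 phosphatase, exceeded the bound, at 8.82. Of 8 fibroblast markers COL3A1, COL1A1 and THY1 did, at 11.36, 7.24 and 7.59, and of 8 endothelial markers only CLDN5 did, at 6.89. Of 3 keratinocyte markers only KRT14 did, at 6.86. All 6 proliferation markers were in the high tertile, from CDK1 at 8.78 to CCNB1 at 12.09. Whether these signals have a part in the levels of the enzyme genes was not tested.

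Most of the enzyme genes had a transcript level in the upper part of the range. Of the 62, 56 (90.3%) exceeded the silent-family bound, against 56.3% of all genes measured, and 40 (64.5%) were in the high tertile, which by construction holds 6139 of the 18417 genes. Another 20 were in the medium tertile and 2 in the low. The top decile, 1841 genes by construction, held 12 of them (19.4%). When only genes above the bound were ranked into tertiles, 19 of the 56 enzyme genes there were in the high tertile. That is near the share that a tertile holds by construction. The median over the 62 genes was 8.58 log2, with a middle range of 7.61 to 9.24, and the median over all genes was 6.91. Taken on each array alone, the median of the enzyme genes was 8.56 ± 0.02 log2 (SD, n = 3 arrays). The genes were chosen by name and are not a sample, so these shares describe them and were not tested.

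**Figure D1:**
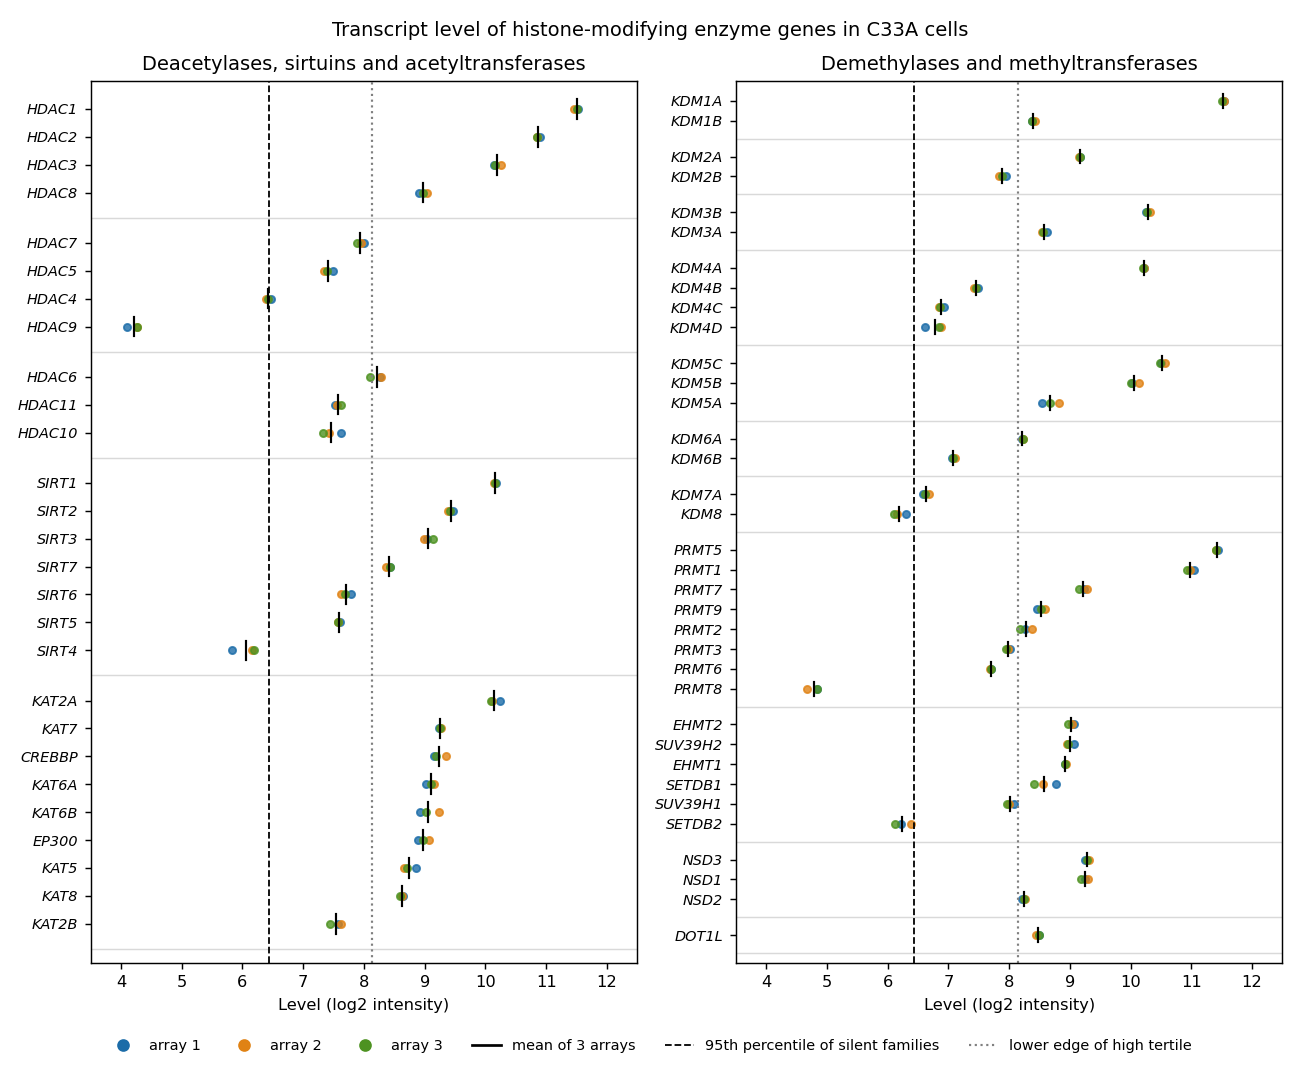
Level of 62 histone-modifying enzyme genes in C33A cells (x axis, log2 intensity), with 1 point per array and a bar at the mean of 3 arrays. Genes are grouped by class and ordered by mean within each. The dashed line is the 95th percentile of the silent families (6.43) and the dotted line the lower edge of the high tertile (8.14). The 3 points of a gene lie close together, and 56 means are to the right of the dashed line.

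The highest levels belonged to enzymes of different kinds. KDM1A (also LSD1), the flavin-dependent demethylase that removes methyl groups from H3K4, had 11.53, 11.54 and 11.50 log2 on arrays 1, 2 and 3. HDAC1, the deacetylase of the SIN3, NuRD and CoREST complexes, had 11.52, 11.47 and 11.51. The arrays of KDM1A and HDAC1 overlapped. PRMT5, which adds symmetric dimethyl groups to arginine, followed with 11.43, 11.40 and 11.41, and PRMT1, the main enzyme of asymmetric arginine dimethylation, with 11.04, 10.97 and 10.92. HDAC2 was at 10.90, 10.84 and 10.85, below every array of PRMT1. In the order of the 62 means, 41 of the 61 neighbouring pairs had arrays that overlapped, and in the other 20 every array of the upper gene lay above every array of the lower gene. This overlap reflects the spread between arrays only, and not the difference in signal between probe sets.

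The proximal promoters of the 2 highest genes on the CHD8 target list and of the 2 highest genes that are not on it, among those with 1 annotated start, are shown because CHD8 was mapped at promoters in these cells. Each is the 250 bases before the RefSeq start on GRCh38.p14, read 5′ to 3′ on the strand of the gene. Capitals mark a GC box (GGGCGG, the motif of SP1) or a CCAAT box, on either strand, so that CCAAT on the opposite strand reads ATTGG. KDM1A (chr1:23019218-23019467, plus strand) and KDM5C (chrX:53225208-53225457, minus strand) are on the list, and HDAC1 (chr1:32291833-32292082, plus strand) and PRMT5 (chr14:22929377-22929626, minus strand) are not.
KDM1A: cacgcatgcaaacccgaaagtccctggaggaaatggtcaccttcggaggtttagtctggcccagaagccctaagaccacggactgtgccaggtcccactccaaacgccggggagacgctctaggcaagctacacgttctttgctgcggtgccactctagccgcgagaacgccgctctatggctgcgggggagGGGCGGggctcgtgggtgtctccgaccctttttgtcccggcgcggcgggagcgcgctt
KDM5C: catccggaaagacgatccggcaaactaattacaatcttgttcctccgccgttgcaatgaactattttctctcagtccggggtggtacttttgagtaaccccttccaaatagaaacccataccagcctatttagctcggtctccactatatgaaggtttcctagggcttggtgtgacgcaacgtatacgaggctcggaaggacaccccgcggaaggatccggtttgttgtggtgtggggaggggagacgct
HDAC1: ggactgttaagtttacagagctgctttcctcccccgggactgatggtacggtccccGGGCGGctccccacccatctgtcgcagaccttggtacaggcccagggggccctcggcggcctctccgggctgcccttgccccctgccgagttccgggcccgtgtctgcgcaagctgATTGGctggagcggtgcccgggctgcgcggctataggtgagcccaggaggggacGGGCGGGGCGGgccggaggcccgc
PRMT5: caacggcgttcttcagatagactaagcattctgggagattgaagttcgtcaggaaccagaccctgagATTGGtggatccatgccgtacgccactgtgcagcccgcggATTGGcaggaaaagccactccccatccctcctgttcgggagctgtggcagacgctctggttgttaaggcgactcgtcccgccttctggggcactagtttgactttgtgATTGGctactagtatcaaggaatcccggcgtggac
KDM1A held 1 GC box, 58 bases before the start. HDAC1 held 3, of which the 2 nearest to the start overlap by a base, and 1 CCAAT box. PRMT5 held 3 CCAAT boxes and no GC box. KDM5C held none of the motifs searched. None of the 4 held an E2F, TATA, ETS, YY1, CRE or NRF1 motif as spelled in the search over all promoters.

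The class I deacetylases, which are nuclear, were all in the high tertile. Of these, HDAC1, HDAC2 and HDAC3 form the catalytic core of most corepressor complexes. Below HDAC1 and HDAC2 came HDAC3, the enzyme of the NCoR and SMRT complexes, at 10.18 ± 0.06 log2 (SD, n = 3). HDAC8, which deacetylates the cohesin subunit SMC3, was the lowest with 8.90, 9.04 and 8.97. The order of the 4 genes was the same on each array.

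None of the class IIa deacetylases was in the high tertile. These enzymes have weak catalytic activity, bind MEF2 factors and shuttle between nucleus and cytoplasm. HDAC7 was the highest with 7.99, 7.96 and 7.88 log2, and HDAC5 was at 7.40 ± 0.07 (SD, n = 3). HDAC4, with a mean of 6.43 ± 0.05 (SD, n = 3), lay at the silent-family bound, with array 1 above it and arrays 2 and 3 below. HDAC9 had 4.11, 4.26 and 4.27, the lowest level of the 62 genes and close to the median of the silent families, 4.05. The class therefore ran from percentile 13.1 to percentile 63.7 of all genes.

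HDAC6, a cytoplasmic enzyme that deacetylates tubulin, had 8.26, 8.28 and 8.10 log2, with array 3 just below the edge of the high tertile and the mean above it. HDAC10, which acts on polyamines, was the lowest of the class IIb and IV enzymes with 7.62, 7.42 and 7.33, and HDAC11, the single class IV enzyme, was at 7.57 ± 0.05 (SD, n = 3). The arrays of HDAC10 and HDAC11 overlapped. Of the 11 zinc-dependent deacetylases, 9 exceeded the silent-family bound and 5 were in the high tertile.

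The sirtuins use NAD+ as a cosubstrate and differ in their place in the cell. SIRT1, a nuclear enzyme that acts on p53 and histones, was the highest with 10.18, 10.15 and 10.16 log2. SIRT2, which is mainly cytoplasmic, was at 9.43 ± 0.04 (SD, n = 3). The other nuclear members were lower, the nucleolar SIRT7 at 8.41 ± 0.04 (SD, n = 3) and SIRT6, which acts on H3K9 and at DNA breaks, at 7.70 ± 0.08 (SD, n = 3). The mitochondrial sirtuins were spread over the range. SIRT3, the main mitochondrial deacetylase, was at 9.05 ± 0.07 (SD, n = 3) and SIRT5, which removes succinyl groups, at 7.59 ± 0.02 (SD, n = 3). SIRT4 had 5.83, 6.16 and 6.19, below the silent-family bound on each array. Of the 7 sirtuins, 6 exceeded the bound and 4 were in the high tertile.

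Of the 9 acetyltransferase genes, 8 were in the high tertile, and most lay close to each other. KAT2A (GCN5), the enzyme of the SAGA and ATAC coactivators, was the highest with 10.23, 10.10 and 10.09 log2. Its paralogue KAT2B (PCAF) was the lowest with 7.57, 7.62 and 7.44, in the medium tertile. The 7 others had means of 8.62 to 9.25. CREBBP and EP300, paralogous coactivators that acetylate H3K27, were at 9.23 ± 0.10 and 8.98 ± 0.08 (SD, n = 3 each), and on each array CREBBP was the higher. KAT6A and KAT6B (MOZ and MORF) were at 9.10 ± 0.07 and 9.06 ± 0.16 (SD, n = 3 each) and their arrays overlapped. KAT7 (HBO1), which acetylates H3 and H4 and takes part in the licensing of replication origins, was at 9.25 ± 0.02, KAT5 (TIP60) at 8.74 ± 0.10 and KAT8 (MOF), the H4K16 acetyltransferase, at 8.62 ± 0.02 (SD, n = 3 each).

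The lysine demethylases covered a wide range, with 10 of 17 in the high tertile and 16 above the silent-family bound. KDM1B, the other flavin-dependent enzyme beside KDM1A, had 8.38, 8.42 and 8.37 log2. The remaining 15 use the JmjC domain, iron and oxoglutarate. Among them the KDM5 enzymes, which remove H3K4 methylation, were all in the high tertile. KDM5C had 10.49, 10.56 and 10.49 and KDM5B was at 10.06 ± 0.07 (SD, n = 3), whereas KDM5A was the lowest with 8.54, 8.83 and 8.67.

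The KDM3 enzymes, which act on mono- and dimethylated H3K9, were in the high tertile as well. KDM3B had 10.26, 10.32 and 10.27 log2 and KDM3A 8.62, 8.54 and 8.56. In the KDM4 family, whose members remove H3K9 trimethylation, KDM4A stood apart from its paralogues with 10.23, 10.22 and 10.21. KDM4B was at 7.46 ± 0.04 and KDM4C at 6.88 ± 0.05 (SD, n = 3 each). KDM4D, an enzyme described mainly in testis, had 6.62, 6.88 and 6.84, which overlapped KDM4C. KDM4A was thus in the high tertile and the other 3 in the medium.

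Of the CpG-binding H3K36 demethylases, KDM2A had 9.17, 9.16 and 9.17 log2 and KDM2B, which brings a Polycomb complex to CpG islands, 7.95, 7.84 and 7.88. Of the H3K27 demethylases, KDM6A (UTX), an X-linked subunit of the KMT2C and KMT2D complexes, had 8.21, 8.23 and 8.22, just inside the high tertile. KDM6B (JMJD3) had 7.06, 7.12 and 7.07. The arrays overlapped in neither pair. KDM7A was at 6.57, 6.69 and 6.62, above the silent-family bound on each array, and KDM8 was at 6.30, 6.16 and 6.11, below it.

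KDM8 was measured by 2 probe sets that disagreed. The probe set annotated to RefSeq transcripts and several cDNAs gave 7.14, 7.09 and 7.10 log2 on arrays 1, 2 and 3, and the other, annotated to a single cDNA, gave 5.45, 5.22 and 5.12. With the higher one alone KDM8 would lie above the bound. EHMT2 also had 2 probe sets, which held the same values on every array and count as 1 measurement. The other 60 genes had 1 probe set each.

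Among the arginine methyltransferases, 5 of 8 were in the high tertile. Below PRMT5 and PRMT1 came PRMT7, which forms monomethylarginine, at 9.22 ± 0.07 log2, PRMT9, which methylates a splicing factor, at 8.52 ± 0.06, and PRMT2 at 8.27 ± 0.10 (SD, n = 3 each). PRMT3, which methylates a ribosomal protein, was at 7.99 ± 0.03 and PRMT6, which methylates H3R2, at 7.70 ± 0.01 (SD, n = 3 each), both in the medium tertile. PRMT8, a membrane-bound paralogue of PRMT1 known from brain, had 4.84, 4.68 and 4.84, below the silent-family bound on each array. With HDAC9 it was 1 of the 2 enzyme genes in the low tertile.

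The H3K9 methyltransferases of the EHMT pair were close, with EHMT2 (G9a) at 9.07, 9.03 and 8.97 log2 and EHMT1 (GLP), its partner in a heterodimer, at 8.93 ± 0.01 (SD, n = 3). EHMT2 was the higher on each array. The enzymes of H3K9 trimethylation in heterochromatin, did not overlap, with SUV39H2 at 9.07, 8.95 and 8.97 and SUV39H1 at 8.02 ± 0.06 (SD, n = 3). SETDB1, which acts with TRIM28 on retroelements, was at 8.58 ± 0.18 (SD, n = 3), and SETDB2 was the lowest of the 6 with 6.21, 6.38 and 6.12, below the bound on each array.

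The 3 NSD genes, whose products dimethylate H3K36, were all in the high tertile. NSD3 had 9.25, 9.32 and 9.29 log2 and NSD1 was at 9.25 ± 0.05 (SD, n = 3), and their arrays overlapped. NSD2, with 8.22, 8.26 and 8.25, was below both. DOT1L, the only known H3K79 methyltransferase, had 8.49, 8.44 and 8.49, in the high tertile too.

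The enzyme genes varied little between the 3 cultures. The median SD was 0.06 log2 for the 62 genes and 0.08 for all genes measured. Within the high tertile the median SD was 0.05 for the enzyme genes and 0.05 for all genes, so that no difference was seen at like level there. In the medium tertile it was 0.06 for 20 enzyme genes and 0.09 for all. None of the 62 had a range over 0.5 log2 between arrays, against 4.14% of all genes, and 7 (11.3%) had a range over 0.25, against 27.0%.

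These 7 genes were SIRT4, SETDB1, KAT6B, HDAC10, KDM5A, KDM4D and SETDB2. SIRT4 had the widest range, 0.36 log2, with array 1 below arrays 2 and 3. SETDB1 had 8.77, 8.56 and 8.42 and KAT6B 8.92, 9.24 and 9.02. Array 1 was the highest or the lowest in 6 of the 7, with SETDB2 as the exception. It was so for 49 of the 62 enzyme genes, against 70.9% of all genes. Array 3 was the highest for 6 of the 62 genes (9.68%), against 28.3% of all genes. Array 1 was the highest for 29 and array 2 for 27, against 39.2% and 32.5% of all genes. These differences were small, with a median deviation of -0.01 log2 from the mean of the gene on array 3, and all 62 genes share the same 3 arrays and their normalization.

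**Figure D2:**
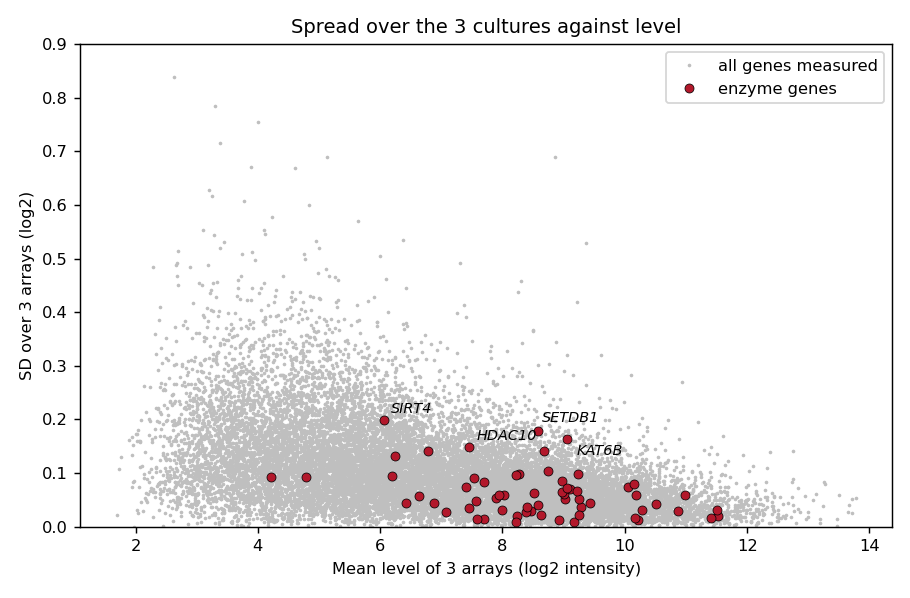
SD over the 3 arrays (y axis, log2) against mean level (x axis, log2 intensity) for all genes measured (grey points) and for 62 enzyme genes (red points). The enzyme genes lie among the genes of like level, and the largest SD among them is that of SIRT4, 0.20.

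The CHD8 target list of the study holds genes whose promoters were enriched for CHD8 in both of its ChIP-chip experiments in C33A cells. A gene that is not listed may still be bound. Of the 62 enzyme genes, 19 (30.6%) were on the list, against 9.63% of all genes measured. The share of targets rises with level among all genes. In the high tertile 15 of 40 were on the list, against 21.2% of all genes of that tertile. In the medium tertile 4 of 20 were, against 6.71%. The demethylases, 17 of the 62 genes, held 10 of the 19 on the list, so that the excess lay largely in this class. The list was chosen by the study in the same cells, and the differences from all genes were not tested. Coverage of the enzyme promoters by the ChIP-chip probes was not tested either.

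By class, among the demethylases 10 of 17 were on it: KDM1A, KDM2B, KDM3A, KDM3B, KDM4A, KDM4C, KDM5A, KDM5B, KDM5C and KDM6A. Among the H3K9 methyltransferases these were SETDB1, SUV39H2 and EHMT2, among the acetyltransferases EP300, KAT6B and KAT7, and among the NSD genes NSD1. Of the 7 sirtuins SIRT4 was on the list and of the 8 arginine methyltransferases PRMT3, which are shares near the 9.63% of all genes. None of the 11 zinc-dependent deacetylases was on it, and with so few genes this count is also near that share.

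High level and presence on the list coincided for some genes and not for others. Of the 12 enzyme genes in the top decile, 5 were on the list (KDM1A, KDM5C, KDM3B, KDM4A and KDM5B). HDAC1, PRMT5, PRMT1, HDAC2, HDAC3, SIRT1 and KAT2A were not. Among all genes of the high tertile 21.2% were on the list, and the share for the top decile was not computed. SIRT4, at 6.06 ± 0.20 log2 (SD, n = 3), was on the list with a level below the silent-family bound. The 19 genes on the list ranged from 6.06 to 11.52 log2, with SUV39H2 as the median gene, and the median was 8.39 for the 43 others, with a range of 4.21 to 11.50. For all 1773 measured genes on the list the median was 9.11.

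**Figure D3:**
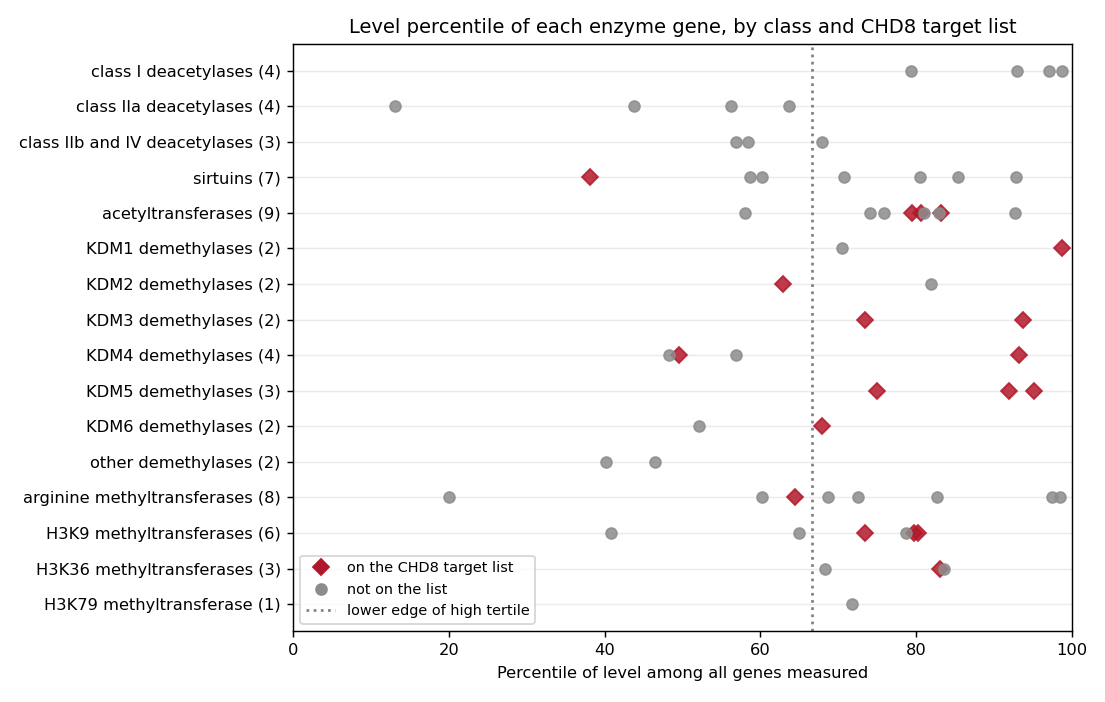
Percentile of the mean level among all genes measured (x axis) for each of 62 enzyme genes, by class (y axis, with the number of genes in brackets). Red diamonds are genes on the CHD8 target list and grey circles genes that are not. The 3 KDM5 and both KDM3 genes are red, and the 11 genes in the 3 rows of deacetylases are grey.

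Some paralogues differed in presence on the list and others did not. Both KDM3 genes and all 3 KDM5 genes were on it, whereas KAT2A, KAT2B and the 11 zinc-dependent deacetylases were not. Whether paralogues differed more often than a share of 30.6% implies was not tested. KDM4A and KDM4C, KDM2B, KDM6A, EHMT2, SUV39H2, SETDB1, EP300 and KAT6B were on it, while KDM4B and KDM4D, KDM2A, KDM6B, EHMT1, SUV39H1, SETDB2, CREBBP and KAT6A were not.

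The proximal promoters of the enzyme genes were rich in CpG. RefSeq windows of GRCh38.p14 were found for 56 of the 62 genes, and the 250 bases before each start were read. DOT1L, HDAC5, KAT6A, KAT8, NSD3 and SIRT7 were not matched. The GC content had a median of 65.9% over the 56 genes and of 62.4% over 14239 measured genes. The ratio of observed to expected CpG had a median of 0.82 against 0.72. It was at least 0.6 for 50 genes (89.3%), against 63.3% of all. All genes are taken here at every level, and a share at like level was not computed. The 6 genes under 0.6 included HDAC9 and PRMT8, the 2 enzyme genes of the low tertile, and HDAC4, at the silent-family bound. KDM6B was in the medium tertile, and HDAC8 and KAT2A were in the high tertile. KDM6B had a ratio of 0.38, HDAC9 of 0.40, PRMT8 of 0.41, HDAC4 of 0.43, HDAC8 of 0.49 and KAT2A, in the top decile of level, of 0.51. The windows of a gene with several starts were averaged here. HDAC4 and HDAC9 had 5 windows each, PRMT8 and KDM6B 2 each, and HDAC8 and KAT2A 1 each.

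Motifs were searched on both strands, and a gene was counted when any of its windows held a match. A GC box (GGGCGG) was found for 39 genes (69.6%, against 63.7% of all genes) and CCAAT for 22 (39.3%, against 40.4%). TATAAA was found for SIRT4 alone (1.79%, against 11.3%). The E2F motif, spelled TTTCCCGC, TTTCGCGC, TTTGCCGC or TTTGGCGC, was found for KDM1B, NSD2, PRMT7 and SIRT6 (7.14%, against 4.66%). These are 4 of the 37 genes with a window that are not on the CHD8 list, against 0 of the 19 on it. With so few genes this does not show a relation to the list. The study searched for E2F sites with motif matrices, so its share of promoters is not comparable with these exact spellings. The ETS motif CCGGAAG was found for 12 genes (21.4%, against 14.3%). They were 5 of the 19 genes on the list (KAT7, KDM2B, KDM4C, PRMT3 and SETDB1) and 7 of the 37 that are not, a difference that was not tested. TGACGTCA, the CRE of CREB factors, was found for SIRT4 and SUV39H2 (3.57%, against 2.83%), GCGCATGCG, from the motif of NRF1, for SIRT5 and SIRT6 (3.57%, against 2.84%), and AAGATGGCG, from the motif of YY1, for none (against 1.02%). A match describes the letters of the window only.

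The partners of the enzymes in their complexes were measured in the same cells. Of 95 partner genes, 94 exceeded the silent-family bound, against 56.3% of all genes, and 82 were in the high tertile, with a median of 9.07 log2. On the CHD8 list were 23 of the 95, a share near the 21.2% of all genes of the high tertile. In the HDAC1 and HDAC2 complexes, all 13 measured SIN3 partners exceeded the bound, from ARID4B at 7.02 ± 0.11 log2 (SD, n = 3) to the histone chaperone RBBP4 at 11.83 ± 0.03 (SD, n = 3). The 10 partners listed for NuRD ran from the remodeller CHD5 at 6.67 ± 0.08 to MTA2 at 11.22 ± 0.03 (SD, n = 3 each). Each gene was listed under 1 complex, so that RBBP4 and RBBP7, which NuRD shares with SIN3, are not among these 10. Of 8 CoREST partners, which also bind KDM1A, RCOR2 was the lowest at 6.12 ± 0.13, below the bound, whereas HMG20B was at 9.91 ± 0.02 (SD, n = 3 each). The 3 measured partners of HDAC3 in NCoR and SMRT ran from TBL1X at 9.07 to TBL1XR1 at 9.77.

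Partners of the acetyltransferases were mostly in the high tertile. This held for 19 of 20 SAGA and ATAC genes, from SUPT3H at 7.12 ± 0.11 log2 to the ubiquitin protease USP22 at 10.99 ± 0.03 (SD, n = 3 each), and for all 13 NuA4 (TIP60) genes, from EP400 at 8.14 ± 0.06 to RUVBL2 at 11.04 ± 0.05 (SD, n = 3 each). The 16 partners of the MOZ, MORF, HBO1 and MOF complexes were lower, with 11 in the high tertile, from JADE2 at 7.02 to MSL1 at 10.47. All 4 partners of PRMT5 were in the high tertile, from COPRS at 9.19 ± 0.08 to WDR77, its obligate partner, at 11.01 ± 0.02 (SD, n = 3 each). Of 8 partners of the H3K9 enzymes, WIZ, which binds EHMT1 and EHMT2, was the lowest at 7.17 ± 0.07 and TRIM28, the partner of SETDB1, the highest at 11.89 ± 0.04 (SD, n = 3 each). None of the 95 genes had a range over 0.5 log2 between arrays, against 4.14% of all genes. Most of the 95 were in the high tertile, where the median SD of all genes was 0.05 log2, against 0.08 at all levels.

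**Figure D4:**
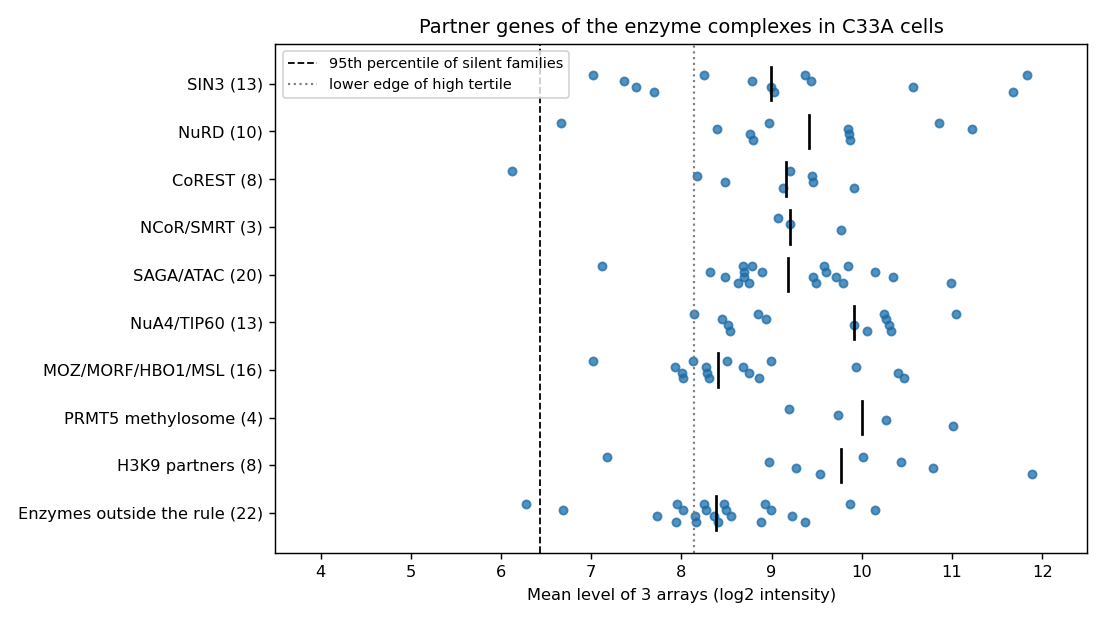
Mean level (x axis, log2 intensity, 3 arrays) of partner genes of the enzyme complexes and of related enzymes outside the symbol families, by complex (y axis, with the number of genes in brackets). Each point is a gene and bars are medians. The dashed line is the silent-family bound (6.43) and the dotted line the lower edge of the high tertile (8.14). Of the 95 complex partners, only RCOR2 lies to the left of the dashed line.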

How the data were processed

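Transcripts of 3 independent C33A cultures were measured, 1 array each. The authors applied Robust Multichip Average normalization (also named in the submitters' processing notes) and oneChannelGUI, and deposited log2 intensities, 1 per probe set and array. Their versions: not given in the sources used here. Of 33297 probe sets, the platform annotation gave 1 symbol to 19460, which were used, several to 1754 and none to 12083. Probe sets of a gene were averaged, which gave 18417 genes. All symbols were those of the RefSeq table of GRCh38.p14 wherever an identifier matched.

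The CHD8 target list (1965 genes) was taken from the supplement of the study for membership only and matched to RefSeq by accession (1907), symbol (40) or synonym (11), and 7 had no match. All samples belong to 1 group and no test was run. The enzyme genes and lists were chosen with earlier results of these data known. All enzyme genes but KDM5D are named. Values on every array are given for the highest and lowest gene of each class, with other genes by mean and SD. Partner genes are named by the highest and lowest of each complex. The YY1 and NRF1 motifs were shortened after a search with longer forms, which did not change the number of enzyme genes that hold them. The functions were tested on simulated data. Alternatives left out each array, took the highest probe set or only genes with 1 probe set, centred the arrays on their medians, used current symbols, and changed the bound, the tertiles and the matching of the list. Python 3.11.15, NumPy 2.4.6, pandas 2.3.3 and matplotlib 3.10.9 were used.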

Additional observations from a re-analysis of the deposited data

How the results depend on the processing

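When an array was left out, the count of enzyme genes above the silent-family bound was 56 to 57, that in the high tertile 40, and the median level ran from 8.55 to 8.61 log2. The count with a range over 0.5 log2 was 0, which it had to be, since a range cannot widen with fewer arrays. With tertiles formed only from genes above the bound, 19 of the 56 enzyme genes there were in the high tertile. This compares with 40 when all genes are ranked, since the genes of lowest signal then leave the ranking. The share of 19 in 56 is near what a tertile holds by construction. With a bound from olfactory receptor genes alone (5.38 log2) 60 genes exceeded it, and with the 99th percentile of the silent families (7.88 log2) 44 did. With all 64 genes of the symbol rule the median level was 8.55 log2, an alternative chosen after seeing the data. With target symbols matched as written 17 genes were on the CHD8 list, since KAT6B and KAT7 stand there under older names. KDM8 was at 7.11 log2 with its higher probe set. The other levels of single genes could not move by more than their SD under the alternatives run. No paired analysis was possible because all samples belong to 1 group. Low signal cannot be told from absence without a detection call.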

Other observations

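Enzymes of the same kinds that carry other symbols were mostly of medium or high level too. Of 22 measured, 21 exceeded the silent-family bound, against 56.3% of all genes, and 16 were in the high tertile. HAT1, which acetylates newly made histone H4, was the highest at 10.15 ± 0.09 log2 (SD, n = 3), followed by the arginine methyltransferase CARM1 at 9.86 ± 0.05 (SD, n = 3). SETD2, the H3K36 trimethylase, was at 9.36 ± 0.04, and the H4K20 methyltransferases KMT5A, KMT5B and KMT5C were at 8.93 ± 0.12, 8.55 ± 0.05 and 8.37 ± 0.05 (SD, n = 3 each). The JmjC proteins JMJD1C and JMJD6 were at 9.22 ± 0.07 and 8.99 ± 0.03, while PHF2 and PHF8 were at 7.95 ± 0.08 and 7.94 ± 0.04 (SD, n = 3 each) in the medium tertile. HR, a demethylase known from skin and brain, was the lowest at 6.28 ± 0.12 (SD, n = 3) and the one below the bound. JMJD1C and CLOCK were on the CHD8 target list, 2 of the 22 and a share near the 9.63% of all genes. Of all genes of the high tertile 21.2% were on it, and the difference from that share was not tested.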
